A study of Homo sapiens with 7 samples.

Results

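Translation initiation factors load the small ribosomal subunit with initiator Met-tRNA and bring it to the capped 5' end of an mRNA. The subunit then scans to a start codon and is joined by the large subunit. The members described here are the rows of the gene count table whose deposited symbol begins with EIF1 to EIF6, without symbols that end in P and digits, the EIF2AK kinases and EIF2C names. There were 50 such rows among 33694. The rule also leaves out EIF4EBP1, EIF4EBP2 and EIF4EBP3, the eIF4E-binding inhibitors, which are given below with the regulators. By complex, 6 rows belonged to start codon selection and subunit joining, 5 to eIF2 and other carriers of Met-tRNA, and 5 to eIF2B. A further 14 belonged to eIF3, 13 to eIF4F and its cofactors, 3 to eIF5A and 1 to eIF6, and 3 were other rows.

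The samples were HK-2 cells, an epithelial line derived from the proximal tubule of the human kidney, harvested 96 h after transfection with 50 nM siRNA. There were 3 libraries of cells given an siRNA against GLUT2 (siGLUT2, replicates 2 to 4). The other 4 libraries were of cells given a scrambled siRNA (replicates 1 to 4). The labels call them biological replicates, and all are cultures of 1 line. Digital 3' mRNA sequencing counted transcript ends, with totals of 5881366 to 6914302 counts in siGLUT2 libraries and 5654957 to 8455963 in scrambled libraries.

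SLC2A2, the gene of the siRNA target GLUT2, had 0, 0 and 0 counts in the siGLUT2 libraries, against 13, 13, 7 and 17 in the scrambled libraries. Mitochondrially encoded genes took 7.04% to 7.56% of counts in siGLUT2 libraries and 4.91% to 5.53% in scrambled libraries. The number of genes with at least 1 count was 13433 to 13891 in siGLUT2 libraries and 14844 to 15036 in scrambled libraries. Of 14 proximal tubule markers 4 (SLC5A2, GGT1, PDZK1 and SLC2A2) reached a mean of 1 CPM, and LRP2, SLC5A1, SLC22A6 and SLC22A8 had a count of 0 in every library. The 14 markers summed to 57.3 to 72.0 CPM in siGLUT2 and 44.3 to 58.5 CPM in scrambled libraries. The 5 epithelial markers (KRT8, KRT18, KRT19, EPCAM and CDH1) summed to 614 to 742 CPM in siGLUT2 and 1033 to 1148 CPM in scrambled libraries. The 6 fibroblast and pericyte markers, of which COL1A1, PDGFRB and LUM reached a mean of 1 CPM, summed to 38.0 to 46.1 CPM in siGLUT2 and 11.8 to 14.8 CPM in scrambled libraries. The endothelial markers PECAM1, CDH5, VWF and KDR were at 0 throughout. The part of these differences in the results below was not tested. In bulk RNA, fewer cells of a type and less RNA per cell cannot be told apart.

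The initiation factor transcripts summed to a similar share of counts in both groups, while single members moved in both directions. They made up 0.985%, 0.976% and 0.944% of all counts in siGLUT2 replicates 2, 3 and 4, against 0.967%, 0.944%, 0.981% and 0.943% in scrambled replicates 1 to 4. The groups overlapped. Of the 50 members, 45 passed the filter on low counts and were tested with edgeR's quasi-likelihood test. At an adjusted p below 0.05, 9 were higher and 9 lower in siGLUT2 cells, or 40.0% of those tested. Among all 12404 genes tested, 28.3% were called, 13.9% higher and 14.4% lower. At a mean level of 50 CPM or more, a limit chosen after the values were seen, 45.7% of all genes and 46.9% of 32 members were called. At that level the share of members called was near the background. The median log2 fold change was 0.03 over the 45 members and -0.003 over all genes tested. No member changed 2-fold or more (0 of 45), called or not. Of all genes tested 1555 of 12404 did, and 223 of the 3878 at a mean of 50 CPM or more. A change of that size with a call was seen in 8.3% of all genes tested. Each fold change is given on the log2 scale, siGLUT2 over scrambled, with its SE, and adjusted p-values are over all genes tested. CPM is the count scaled by library size and TMM factor. It counts transcript ends and is not divided by transcript length, so levels are set side by side between groups and not between genes. The CPM ranges of siGLUT2 and scrambled libraries did not overlap for 35.1% of all genes tested. At a mean of 50 CPM or more they did not overlap for 1944 of 3878 genes and 15 of 32 members.

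**Figure D1:**
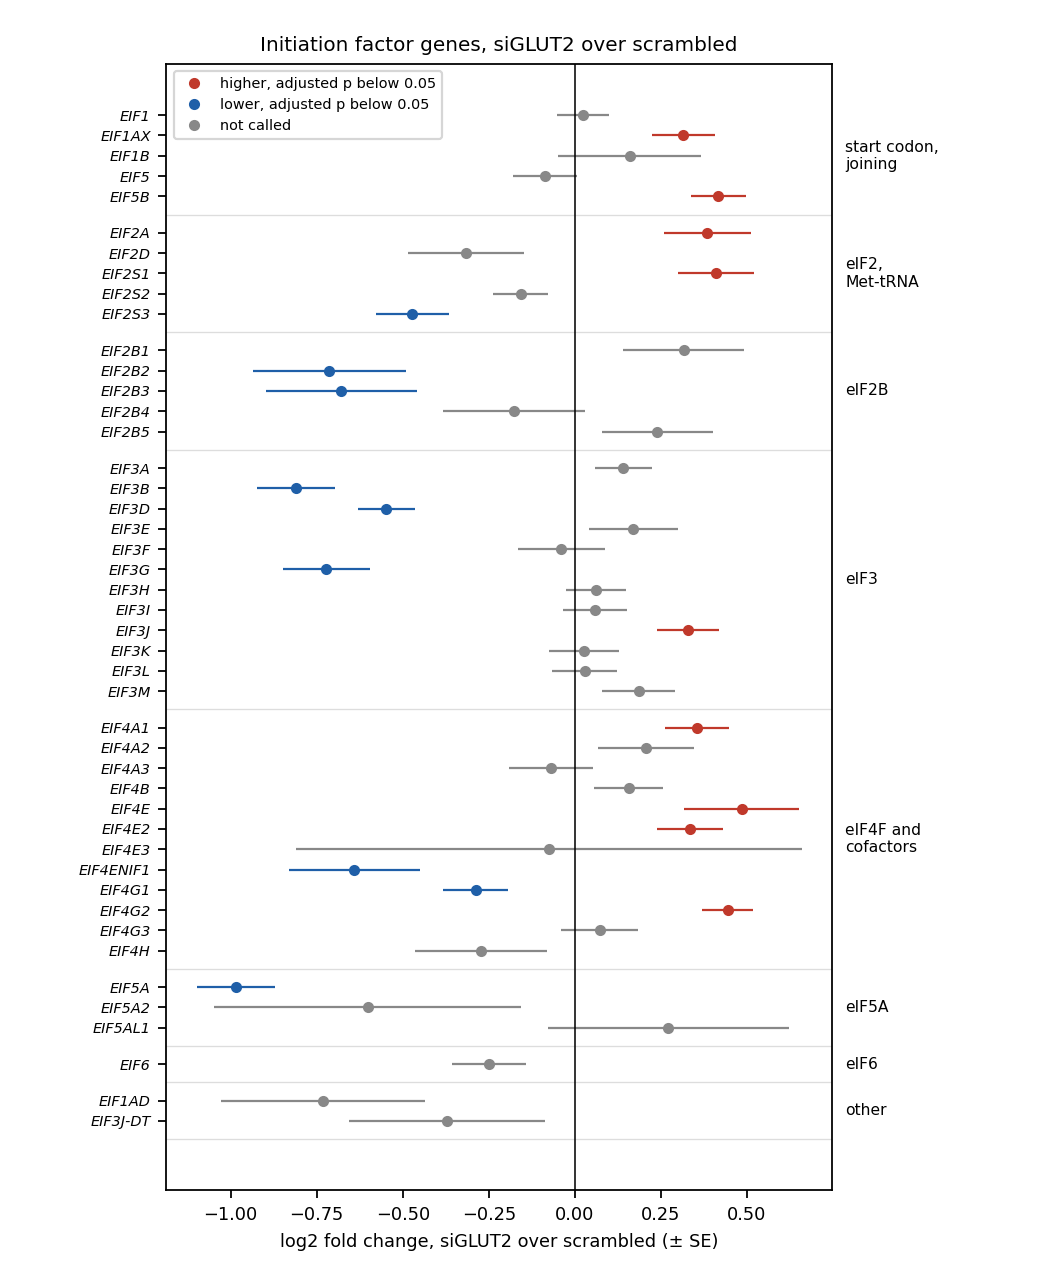
Log2 fold change (siGLUT2 over scrambled, ± SE) on the horizontal axis for each of the 45 tested initiation factor rows, grouped by complex down the page. Red points are the 9 genes called higher, blue points the 9 called lower and grey points the 27 not called. The lowest value is that of EIF5A (-0.99 ± 0.11) and the highest that of EIF4E (0.48 ± 0.17).

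EIF5A had the lowest log2 fold change of the tested members. Its product, now known mainly as an elongation and termination factor, relieves stalled ribosomes and carries the unusual amino acid hypusine. EIF5A (ENSG00000132507, chr17:7306999-7312463, plus strand) was at 250.0, 319 and 338 CPM in siGLUT2 replicates 2 to 4, against 635, 523, 711 and 526 CPM in scrambled replicates 1 to 4. Every siGLUT2 library lay below every scrambled library, and the fitted level was 0.505 times the scrambled level (log2 fold change -0.99 ± 0.11, adjusted p = 1.01e-06). Its paralog EIF5A2, an isoform with restricted expression, was low. It had 2.38, 7.34 and 8.43 CPM in siGLUT2 cells, against 3.50, 9.82, 12.9 and 10.7 CPM in scrambled cells, with overlapping groups and no call (adjusted p = 0.341). EIF5AL1, a near-identical copy whose reads the counting may not separate from those of EIF5A, was also not called (log2 fold change 0.27 ± 0.35, adjusted p = 0.614). Neither enzyme that makes hypusine on eIF5A was called. DHPS had a log2 fold change of -0.33 ± 0.22 (adjusted p = 0.288) and DOHH one of -0.24 ± 0.29 (adjusted p = 0.583). The product of EIF6 keeps the large ribosomal subunit from joining too early. EIF6 was at 206, 288 and 300.4 CPM in siGLUT2 cells, against 328, 326, 310.2 and 296 CPM in scrambled cells. Replicate 4 of siGLUT2 lay inside the scrambled range, and EIF6 was not called (log2 fold change -0.25 ± 0.11, adjusted p = 0.0861). The adjusted p was 0.0173 without siGLUT2 replicate 4 and 0.0363 with no low-count filter. Without siGLUT2 replicate 2 the log2 fold change was -0.10 (adjusted p = 0.379).

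The eIF3 complex is the large scaffold that holds the small subunit, eIF2 and eIF4F together. Of its 14 genes 12 were tested, of which 3 fell, 1 rose and 8 were not called. The share called was 33.3%, beside 28.3% of all genes tested. All 12 had a mean above 50 CPM, and of all genes at 50 CPM or more 45.7% were called. EIF3B encodes an RNA-binding scaffold subunit (ENSG00000106263, chr7:2354086-2380745, plus strand). It was at 182, 229 and 293 CPM in siGLUT2 replicates 2 to 4, against 419, 421, 405 and 401 CPM in scrambled replicates 1 to 4 (log2 fold change -0.81 ± 0.11, adjusted p = 1.3e-05). The groups were far apart, and siGLUT2 replicate 2 was the lowest library. EIF3G encodes an RNA-recognition subunit that binds EIF3B's product (ENSG00000130811, chr19:10115017-10119918, minus strand). It was at 77.8, 123 and 104 CPM in siGLUT2 cells, against 174, 169.5, 156 and 173 CPM in scrambled cells (log2 fold change -0.72 ± 0.13, adjusted p = 0.000151). EIF3D encodes a subunit that can itself bind the cap of some mRNAs (ENSG00000100353, chr22:36510850-36529436, minus strand). It was at 249.8, 233 and 262 CPM in siGLUT2 cells, against 365, 371, 354 and 361 CPM in scrambled cells (log2 fold change -0.55 ± 0.08, adjusted p = 3.08e-05). Both were lower in each siGLUT2 library than in any scrambled library. EIF3J, a loosely attached subunit that acts at the decoding centre, rose, with no overlap between groups. Its values were 339, 273 and 305 CPM in siGLUT2 cells, against 239.5, 258, 238 and 238 CPM in scrambled cells (log2 fold change 0.33 ± 0.09, adjusted p = 0.00852).

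The remaining eIF3 subunit genes were not called. In the human complex, subunits a, c, e, f, h, k, l and m form an octameric core, and b, d, g and i lie outside it. This division was made with the values known. Of the 8 core genes 7 were tested and 0 were called by edgeR, DESeq2 or limma-voom, with 0 at an unadjusted p below 0.05. Of all genes tested, edgeR called 28.3%, and of those at a mean of 50 CPM or more 45.7%. The log2 fold changes of the 7 core genes ran from -0.04 (EIF3F) to 0.19 (EIF3M). Among these 7, EIF3M alone had groups that did not overlap, at 119.9, 122 and 107 CPM in siGLUT2 cells, against 105, 105, 100.0 and 99.8 CPM in scrambled cells (adjusted p = 0.209). EIF3E was at 282, 239 and 164 CPM in siGLUT2 cells, against 212, 183, 219 and 199 CPM in scrambled cells and was not called (adjusted p = 0.356). Without siGLUT2 replicate 4, its lowest siGLUT2 library, EIF3E passed at an adjusted p of 0.00937. EIF3I encodes the WD-repeat partner of EIF3B and EIF3G in 1 module, and it was not called. It averaged 269 ± 33.8 CPM in siGLUT2 libraries (SD, n = 3) and 258 ± 11.3 CPM in scrambled libraries (SD, n = 4), with a log2 fold change of 0.06 ± 0.09 (adjusted p = 0.695). EIF3C and its near-identical copy EIF3CL were under the filter. EIF3C had 0, 2 and 0 counts in siGLUT2 libraries, against 13, 5, 7 and 2 in scrambled libraries. Reads shared by the copies may have been counted for neither, so the level of subunit c is uncertain here.

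**Figure D2:**
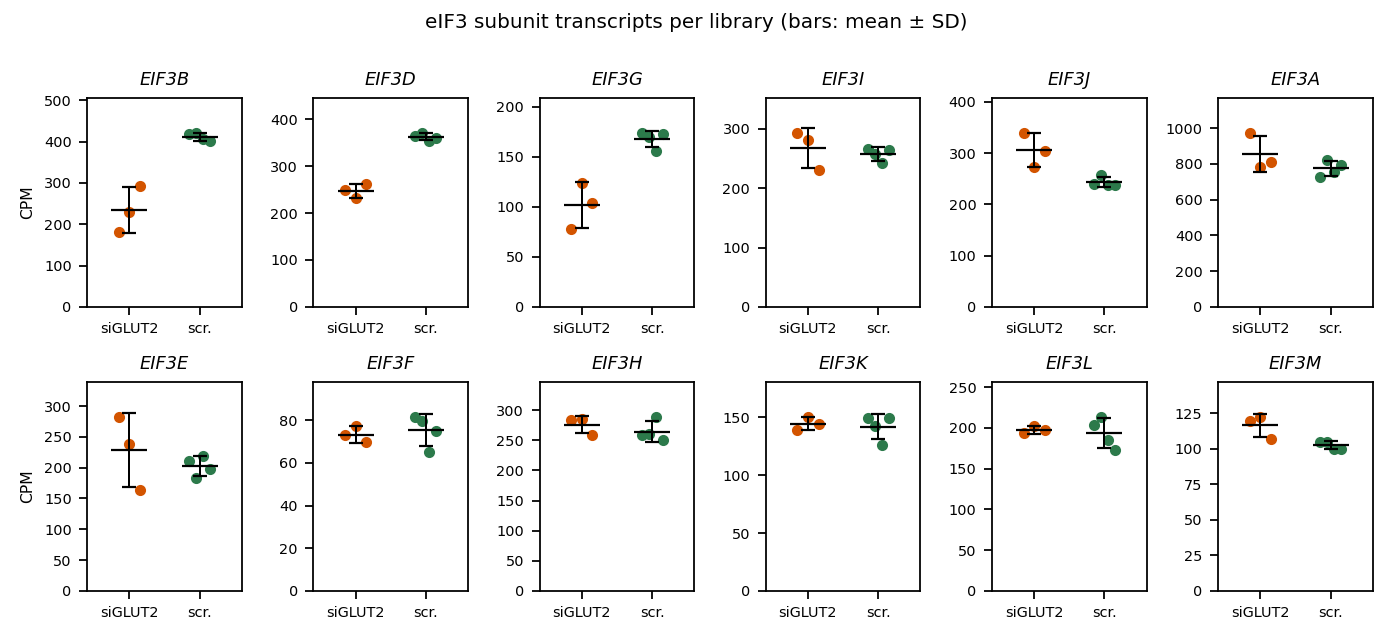
CPM per library (vertical axis, starting at 0) of the 12 tested eIF3 subunit genes in siGLUT2 libraries (orange, n = 3) and scrambled libraries (green, n = 4), with the mean and SD in black. EIF3B, EIF3D and EIF3G lie lower in every siGLUT2 library, EIF3J and EIF3M higher, and the groups of the other 7 genes overlap.

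The eIF2 subunit genes moved in opposite directions. eIF2 carries Met-tRNA as a ternary complex with GTP, and phosphorylation of its alpha subunit is the shared switch of the integrated stress response. EIF2S1 encodes the alpha subunit (ENSG00000134001, chr14:67359997-67386516, plus strand). It was at 150.0, 136 and 119 CPM in siGLUT2 cells, against 104, 95.7, 100.3 and 106 CPM in scrambled cells (log2 fold change 0.41 ± 0.11, adjusted p = 0.00708). EIF2S3 encodes the GTP-binding gamma subunit (ENSG00000130741, chrX:24054716-24077971, plus strand). It was at 93.0, 107 and 99.6 CPM in siGLUT2 cells, against 132, 133, 147 and 141 CPM in scrambled cells (log2 fold change -0.47 ± 0.11, adjusted p = 0.00174). Neither gene overlapped between groups, as was so for 35.1% of all genes tested. Alpha was higher and gamma lower in siGLUT2 cells. The log2 ratio of EIF2S1 to EIF2S3 CPM was 0.69, 0.35 and 0.25 in siGLUT2 replicates 2 to 4, against -0.35, -0.47, -0.56 and -0.41 in scrambled replicates 1 to 4. This ratio was chosen after the values were seen and is a description. EIF2S2, the beta subunit, was at 570.4, 540.3 and 495 CPM in siGLUT2 cells, against 568, 628, 607 and 584 CPM in scrambled cells. It was not called (adjusted p = 0.151, and 0.0347 without siGLUT2 replicate 2). EIF2A encodes an alternative carrier of initiator tRNA. It had 124, 90.6 and 95.5 CPM in siGLUT2 cells, against 71.6, 83.8, 83.8 and 77.3 CPM in scrambled cells (log2 fold change 0.39 ± 0.13, adjusted p = 0.0268). Its groups were apart, but the call was lost when scrambled replicate 1 (adjusted p = 0.0883), scrambled replicate 4 (0.0685) or siGLUT2 replicate 2 (0.17, log2 fold change 0.23) was left out. EIF2D, which can deliver tRNA without GTP, was not called (log2 fold change -0.32 ± 0.17, adjusted p = 0.173).

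The exchange factor eIF2B reloads eIF2 with GTP and is inhibited by phosphorylated eIF2. Of its 5 subunit genes 2 fell, and 0 rose by edgeR, DESeq2 or limma-voom, with 0 higher at an unadjusted p below 0.05. The share called was 40.0%, beside 28.3% of all genes tested. EIF2B2, a regulatory subunit, was at 25.4, 17.6 and 12.6 CPM in siGLUT2 cells, against 33.6, 30.1, 28.2 and 29.4 CPM in scrambled cells (log2 fold change -0.71 ± 0.22, adjusted p = 0.0195). EIF2B3, a subunit of the catalytic part, was at 16.2, 16.1 and 13.0 CPM in siGLUT2 cells, against 22.5, 23.9, 22.1 and 28.2 CPM in scrambled cells (log2 fold change -0.68 ± 0.22, adjusted p = 0.0233). The groups were apart for both genes, which have low counts. EIF2B2 was not called without scrambled replicate 1 (adjusted p = 0.0651), siGLUT2 replicate 3 (0.0559) or siGLUT2 replicate 4 (0.0784). EIF2B3 was not called without scrambled replicate 2 (adjusted p = 0.0516), scrambled replicate 4 (0.089) or siGLUT2 replicate 4 (0.0606). EIF2B5, the catalytic subunit, was not called. It averaged 57.0 ± 12.6 CPM in siGLUT2 libraries (SD, n = 3) and 48.2 ± 5.20 CPM in scrambled libraries (SD, n = 4) (adjusted p = 0.289). EIF2B1 (log2 fold change 0.32 ± 0.18, adjusted p = 0.194) and EIF2B4 (log2 fold change -0.18 ± 0.21, adjusted p = 0.574) were not called, although EIF2B1 had an adjusted p of 0.0482 without siGLUT2 replicate 4.

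Among genes of start codon selection and subunit joining, 2 of 5 tested members rose (40.0% called, beside 28.3% of all genes tested). By edgeR, DESeq2 or limma-voom 0 fell, with 0 lower at an unadjusted p below 0.05. At a mean of 50 CPM or more, which EIF1B did not reach, 45.7% of all genes were called. EIF5B encodes the GTPase that joins the large subunit (ENSG00000158417, chr2:99337353-99401326, plus strand). It was at 1062, 943 and 861 CPM in siGLUT2 cells, against 709, 745, 713 and 694 CPM in scrambled cells (log2 fold change 0.42 ± 0.08, adjusted p = 0.000385). EIF1AX encodes a factor that binds EIF5B's product and keeps the scanning subunit open. It was at 384, 342 and 301 CPM in siGLUT2 cells, against 256, 281, 283 and 281 CPM in scrambled cells (log2 fold change 0.31 ± 0.09, adjusted p = 0.0123). All siGLUT2 values of both genes lay above all scrambled values, and 35.1% of all genes tested had separate groups in either direction. EIF1AX lost its call without scrambled replicate 1 (adjusted p = 0.0536), its lowest scrambled library. EIF1, the start codon fidelity factor, was at 581, 597 and 609 CPM in siGLUT2 cells, against 594, 601, 591 and 558 CPM in scrambled cells. Its groups overlapped, with a log2 fold change of 0.02 ± 0.07 (adjusted p = 0.85). EIF5, the GTPase-activating protein of eIF2, was not called. It averaged 183 ± 7.85 CPM in siGLUT2 libraries (SD, n = 3) and 195 ± 13.1 CPM in scrambled libraries (SD, n = 4) (adjusted p = 0.536). EIF1B was not called (log2 fold change 0.16 ± 0.21, adjusted p = 0.617), and EIF1AY, the Y-linked copy of EIF1AX, was under the filter.

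The cap-binding complex eIF4F and its cofactors held 12 tested members, of which 4 rose and 2 fell (50.0%, beside 28.3% of all genes). At a mean of 50 CPM or more, which EIF4E3, EIF4ENIF1 and EIF4H did not reach, 45.7% of all genes were called. EIF4G2 encodes a scaffold, also called DAP5, that lacks the eIF4E-binding part and serves cap-independent initiation (ENSG00000110321, chr11:10797050-10809110, minus strand). It was at 1251, 1368 and 1240.3 CPM in siGLUT2 cells, against 985, 886, 994 and 915 CPM in scrambled cells (log2 fold change 0.44 ± 0.07, adjusted p = 9.76e-05). Its canonical relative EIF4G1 (ENSG00000114867, chr3:184314495-184335358, plus strand) was at 424, 457 and 580.4 CPM in siGLUT2 cells, against 619, 585, 591 and 586 CPM in scrambled cells (log2 fold change -0.29 ± 0.09, adjusted p = 0.0238). The groups were apart for both scaffolds, in opposite directions, although siGLUT2 replicate 4 came just under the scrambled values of EIF4G1. The EIF4G1 call was lost without scrambled replicate 1 (adjusted p = 0.0869), 3 (0.0567) or 4 (0.0583). It was also lost without siGLUT2 replicate 2 (adjusted p = 0.066) or 3 (0.113), and without siGLUT2 replicate 4 the log2 fold change was -0.44. EIF4G3, the other full-length scaffold, averaged 138 ± 21.2 CPM in siGLUT2 libraries (SD, n = 3) and 131 ± 8.10 CPM in scrambled libraries (SD, n = 4) (adjusted p = 0.679).

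EIF4E2 encodes a competitor of eIF4E that represses many mRNAs. It was at 200.1, 205 and 234 CPM in siGLUT2 cells, against 181, 170.0, 158 and 166 CPM in scrambled cells (log2 fold change 0.33 ± 0.09, adjusted p = 0.0103), and its adjusted p was 0.0504 without siGLUT2 replicate 4. EIF4E encodes the limiting cap-binding subunit itself. It was at 99.3, 61.9 and 56.4 CPM in siGLUT2 cells, against 49.5, 50.9, 49.6 and 57.0 CPM in scrambled cells (log2 fold change 0.48 ± 0.17, adjusted p = 0.0333). The EIF4E call rested on siGLUT2 replicate 2, since replicate 4 lay inside the scrambled range. Without siGLUT2 replicate 2 its log2 fold change was 0.19 (adjusted p = 0.361). Without scrambled replicate 1, 2 or 3 the adjusted p was 0.0856, 0.0829 or 0.0833. EIF4ENIF1, whose product carries eIF4E to the nucleus and to decay bodies, fell. It was at 26.6, 19.4 and 26.7 CPM in siGLUT2 cells, against 34.0, 33.6, 45.6 and 37.7 CPM in scrambled cells (log2 fold change -0.64 ± 0.19, adjusted p = 0.0139). Its groups were apart, and its call was lost without scrambled replicate 3 (adjusted p = 0.068) or siGLUT2 replicate 3 (0.0717). EIF4E3 was low and variable, at 0.681, 6.47 and 1.09 CPM in siGLUT2 cells, against 2.24, 2.27, 3.54 and 3.70 CPM in scrambled cells (adjusted p = 0.955). EIF4E1B, known from oocytes, had a count of 0 in every library.

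EIF4A1 encodes the helicase that unwinds 5' ends. It was at 207, 213 and 212 CPM in siGLUT2 cells, against 179, 159.9, 152 and 167 CPM in scrambled cells (log2 fold change 0.36 ± 0.09, adjusted p = 0.00576). The siGLUT2 values were all above the scrambled values and close to each other. EIF4A1 overlaps the SENP3-EIF4A1 readthrough gene on the same strand and has 13 named pseudogenes in GENCODE, so its reads can be shared. Its paralog EIF4A2 was not called, at 74.4, 78.7 and 69.2 CPM in siGLUT2 cells, against 60.6, 52.9, 77.0 and 66.2 CPM in scrambled cells (adjusted p = 0.292). EIF4A3, the helicase of the exon junction complex, was not called (log2 fold change -0.07 ± 0.12, adjusted p = 0.718). The helicase cofactors EIF4B (log2 fold change 0.16 ± 0.10, adjusted p = 0.268) and EIF4H (log2 fold change -0.27 ± 0.19, adjusted p = 0.31) were not called. Of the other rows, EIF1AD had 6.81, 10.1 and 7.49 CPM in siGLUT2 cells, against 15.9, 10.7, 15.03 and 12.5 CPM in scrambled cells. Its groups did not overlap, but it was not called (adjusted p = 0.0697, and 0.0465 without siGLUT2 replicate 3). EIF3J-DT, the divergent transcript beside EIF3J, was not called (log2 fold change -0.37 ± 0.28, adjusted p = 0.361), and EIF1AX-AS1 had a count of 0 in every library.

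**Figure D3:**
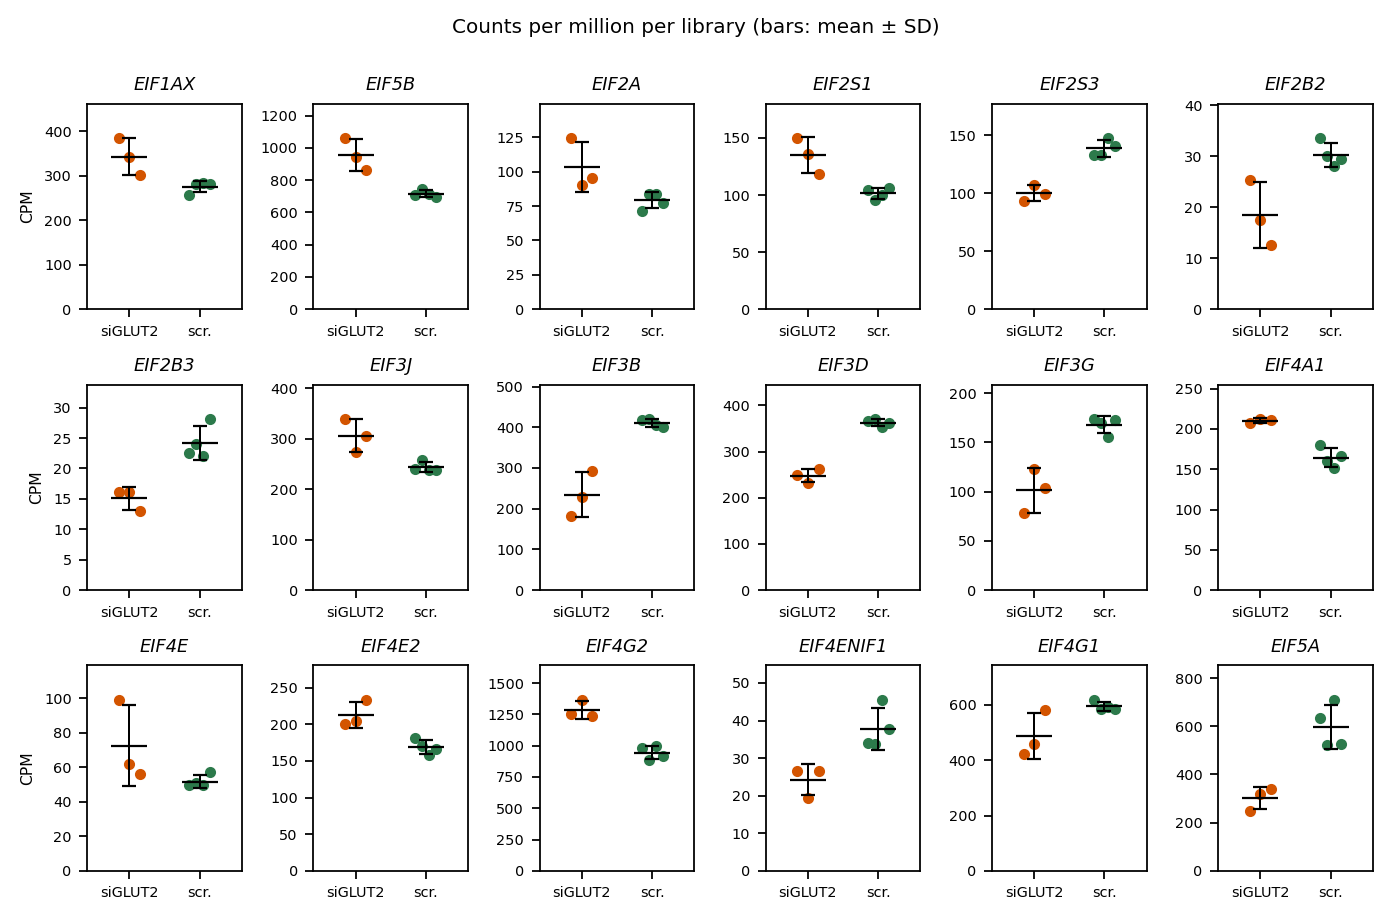
CPM per library (vertical axes, starting at 0) of the 18 initiation factor genes called higher or lower, with siGLUT2 libraries (orange, n = 3) left of scrambled libraries (green, n = 4) and the mean and SD in black. The groups overlap for EIF4E alone, where siGLUT2 replicate 2 stands at 99.3 CPM and replicates 3 and 4 at 61.9 and 56.4 CPM.

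The siGLUT2 libraries differed more from each other than the scrambled libraries did. The median SD of log2 CPM over the 45 tested members was 0.214 in siGLUT2 and 0.0962 in scrambled libraries, with 35 members wider in siGLUT2. Over all genes tested it was 0.293 in siGLUT2 and 0.204 in scrambled libraries, with 8522 of 12404 genes wider in siGLUT2. Among the 45 tested members 19 had separate CPM ranges in siGLUT2 and scrambled libraries, compared with 35.1% of all genes tested. These 19 were the called members other than EIF4E, with EIF3M and EIF1AD. At a mean of 50 CPM or more, the ranges were separate for 15 of 32 members and 1944 of 3878 genes. At that level the members did not exceed the background. Replicate 2 was the highest siGLUT2 library for 6 of the 9 higher members and the lowest for 5 of the 9 lower members. Over all genes the same was so for 43.1% of the higher and 43.8% of the lower calls. EIF3B, EIF3G, EIF5A and EIF4G1 had their lowest value in that library, and EIF5B, EIF1AX, EIF2S1 and EIF4E their highest.

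Ratios between paralogs, or genes with overlapping roles, were compared for 7 pairs by an exact two-sided permutation test. The test has 35 assignments of the 7 libraries, so its smallest p is 0.0286. The log2 CPM ratio of EIF4G1 to EIF4G2 was -1.56, -1.58 and -1.10 in siGLUT2 replicates 2 to 4, against -0.67, -0.60, -0.75 and -0.64 in scrambled replicates 1 to 4. It was lower in all 3 siGLUT2 libraries, by a difference of -0.75 (exact permutation p = 0.0286, and 0.2 adjusted over the 7 pairs). For EIF4G1/EIF4G3 the difference was -0.37, with an adjusted exact permutation p of 0.3. The differences were 0.14 for EIF4A1/EIF4A2, -0.37 for EIF5A/EIF5A2 and -0.13 for EIF1/EIF1B, each with an adjusted exact permutation p of 0.84. EIF4E/EIF4E2 (0.11) and EIF2S1/EIF2A (0.03) had one of 0.857. No pair passed after adjustment, and a single pair at the smallest p could not have passed.

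**Figure D4:**
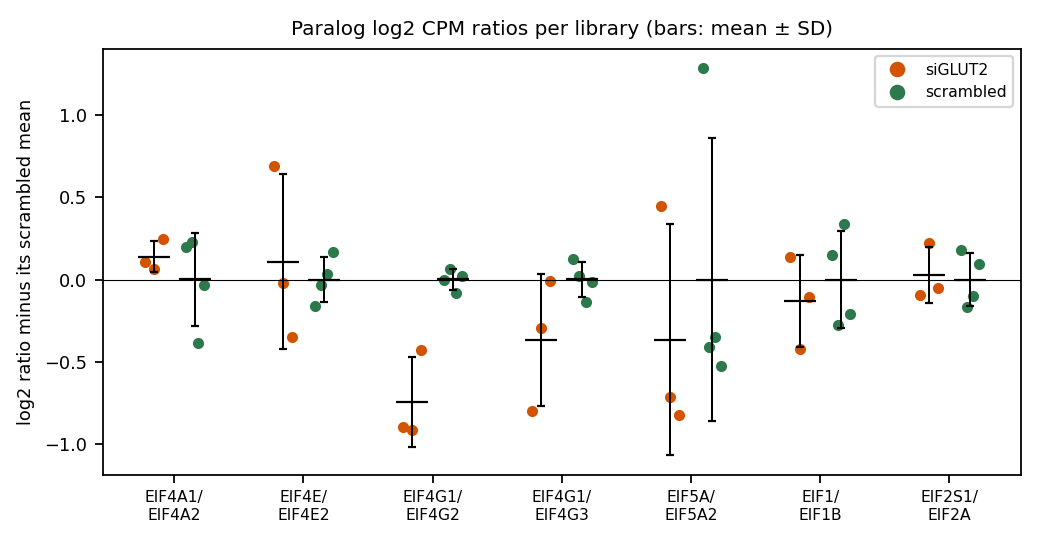
Log2 ratio of the CPM of 2 genes per library (vertical axis, with the mean of the scrambled libraries set to 0) for 7 pairs, siGLUT2 in orange (n = 3) left of scrambled in green (n = 4), with mean and SD in black. EIF4G1/EIF4G2 is the only pair whose groups do not overlap, with a difference of -0.75.

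Genes that regulate or accompany initiation but fall outside the member rule were given as 4 lists of 68 names, of which 67 were found and tested. In them 11 genes rose and 18 fell, or 43.3%, beside 28.3% of all genes tested. The share was 45.7% for all genes at a mean of 50 CPM or more, a level the lists were not limited to. In the list of eIF2 kinases, phosphatase and stress regulators 3 of 15 rose and 5 fell (53.3%, beside the same 28.3% of all genes). All 4 eIF2 kinase genes were called, with 2 in each direction. Their groups did not overlap, as was so for 35.1% of all genes tested. EIF2AK4, the amino acid sensor GCN2, was at 93.1, 88.8 and 68.7 CPM in siGLUT2 cells, against 55.0, 57.7, 55.0 and 47.0 CPM in scrambled cells (log2 fold change 0.64 ± 0.14, adjusted p = 0.00141). EIF2AK3, the endoplasmic reticulum sensor PERK, was at 25.0, 26.3 and 22.5 CPM in siGLUT2 cells, against 11.6, 14.96, 16.3 and 7.92 CPM in scrambled cells (log2 fold change 0.94 ± 0.25, adjusted p = 0.00667). Both were higher in siGLUT2 cells, while the heme sensor and the RNA sensor were lower. EIF2AK1, the heme-regulated kinase HRI, was at 195, 148 and 186 CPM in siGLUT2 cells, against 232, 249, 245 and 254 CPM in scrambled cells (log2 fold change -0.48 ± 0.10, adjusted p = 0.000989). EIF2AK2, the double-stranded RNA sensor PKR, was at 141, 110.5 and 144 CPM in siGLUT2 cells, against 187, 173, 177 and 189.8 CPM in scrambled cells (log2 fold change -0.46 ± 0.11, adjusted p = 0.00226). PPP1CA encodes a catalytic subunit of protein phosphatase 1, which dephosphorylates eIF2. It fell, at 107, 123 and 140.2 CPM in siGLUT2 cells, against 209, 208, 224 and 196 CPM in scrambled cells (log2 fold change -0.77 ± 0.10, adjusted p = 9.06e-06). Of the other catalytic subunit genes, PPP1CB fell (log2 fold change -0.48 ± 0.11, adjusted p = 0.00284). PPP1CC was not called (log2 fold change 0.01 ± 0.10, adjusted p = 0.959). The eIF2-targeting subunits of this phosphatase were not called, PPP1R15A at a log2 fold change of 0.46 ± 0.18 (adjusted p = 0.058) and PPP1R15B at 0.08 ± 0.14 (adjusted p = 0.72). Of the stress factors, ATF4, made when eIF2 is phosphorylated, was not called. It averaged 382 ± 67.6 CPM in siGLUT2 libraries (SD, n = 3) and 356 ± 27.3 CPM in scrambled libraries (SD, n = 4) (adjusted p = 0.488). DDIT3, the stress factor CHOP, rose, at 33.7, 29.4 and 28.6 CPM in siGLUT2 cells, against 18.6, 23.3, 13.9 and 16.6 CPM in scrambled cells (log2 fold change 0.75 ± 0.21, adjusted p = 0.00998). ATF5, a related stress factor, fell, at 18.7, 21.0 and 31.7 CPM in siGLUT2 cells, against 38.2, 57.9, 41.3 and 36.1 CPM in scrambled cells (log2 fold change -0.87 ± 0.21, adjusted p = 0.00344). Neither DDIT3 nor ATF5 overlapped between groups.

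Among 18 eIF4F regulators 3 rose and 7 fell (55.6%, beside 28.3% of all genes). MKNK2, a kinase that phosphorylates eIF4E while bound to eIF4G, had the lowest log2 fold change of the 4 lists. Its level was 62.8, 64.2 and 58.1 CPM in siGLUT2 cells, against 178, 177, 168 and 195 CPM in scrambled cells (log2 fold change -1.54 ± 0.11, adjusted p = 8.62e-10), with siGLUT2 values far below the scrambled ones. Its paralog MKNK1 was not called (log2 fold change -0.33 ± 0.25, adjusted p = 0.355). PDCD4, an inhibitor of eIF4A, rose, at 127, 115 and 113 CPM in siGLUT2 cells, against 71.1, 84.3, 79.2 and 74.7 CPM in scrambled cells (log2 fold change 0.61 ± 0.11, adjusted p = 0.000302). The S6 kinase RPS6KB2 (log2 fold change -0.90 ± 0.20, adjusted p = 0.00175) and the phosphatase PPM1G (log2 fold change -0.45 ± 0.09, adjusted p = 0.000363) fell. RPS6KB1, the paralog of RPS6KB2, was not called (log2 fold change 0.29 ± 0.18, adjusted p = 0.24). RPS6KA1 (log2 fold change -0.63 ± 0.17, adjusted p = 0.00777), GIGYF2 (log2 fold change -0.38 ± 0.11, adjusted p = 0.0134) and LARP1 (log2 fold change -0.24 ± 0.09, adjusted p = 0.0438) also fell. CYFIP1 rose (log2 fold change 0.50 ± 0.17, adjusted p = 0.0346). Of 16 alternative fits, described below, CYFIP1 lost its call in 9, LARP1 in 7, GIGYF2 in 2 and RPS6KA1 in 0. Of the 3 genes of eIF4E-binding proteins 1 rose, 1 fell and EIF4EBP3 was not called (log2 fold change -0.13 ± 0.43, adjusted p = 0.855). EIF4EBP2 had 128, 146 and 136 CPM in siGLUT2 cells, against 94.7, 91.0, 119 and 114 CPM in scrambled cells (log2 fold change 0.39 ± 0.12, adjusted p = 0.0154). EIF4EBP1 had 23.0, 54.5 and 39.8 CPM in siGLUT2 cells, against 62.3, 57.2, 62.2 and 51.4 CPM in scrambled cells (log2 fold change -0.57 ± 0.20, adjusted p = 0.0379), with overlapping groups. Neither of these calls was stable. EIF4EBP2 was not called when scrambled replicate 1 (adjusted p = 0.063), scrambled replicate 2 (0.0662) or siGLUT2 replicate 3 (0.0729) was left out. EIF4EBP1 was called in 1 of the 7 fits that left out a library, the one without siGLUT2 replicate 3 (log2 fold change -0.89, adjusted p = 0.00324). Its other adjusted p-values ran from 0.0568 without scrambled replicate 4 to 0.16 without siGLUT2 replicate 2 (log2 fold change -0.31).

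Of 18 partner proteins 3 rose and 4 fell (38.9%, beside 28.3% of all genes). DDX3X, a helicase for structured 5' ends, was at 306, 294 and 298 CPM in siGLUT2 cells, against 204, 230.5, 196 and 237 CPM in scrambled cells (log2 fold change 0.47 ± 0.09, adjusted p = 0.00044). PAIP2, an inhibitor of the poly(A)-binding protein, rose as well (log2 fold change 0.57 ± 0.12, adjusted p = 0.00129). Its relative PAIP2B was at 19.1, 9.06 and 8.12 CPM in siGLUT2 cells, against 6.71, 4.79, 5.43 and 4.75 CPM in scrambled cells (log2 fold change 1.15 ± 0.36, adjusted p = 0.0205). Without siGLUT2 replicate 2 the log2 fold change of PAIP2B was 0.66 (adjusted p = 0.231), and its call was also lost without scrambled replicate 2 (adjusted p = 0.0608) or scrambled replicate 4 (0.0576). BZW2, a mimic of EIF5's product, fell, at 116, 145 and 109.6 CPM in siGLUT2 cells, against 205, 202, 194 and 188 CPM in scrambled cells (log2 fold change -0.68 ± 0.11, adjusted p = 4.89e-05). The nuclear cap-binding subunit NCBP1 also fell (log2 fold change -0.70 ± 0.17, adjusted p = 0.00302). The groups of these 5 genes did not overlap, as was so for 35.1% of all genes tested. DENR (log2 fold change -0.38 ± 0.10, adjusted p = 0.00733), with separate groups, and DHX9 (log2 fold change -0.35 ± 0.11, adjusted p = 0.0144), with overlapping groups, also fell. DHX9 lost its call without scrambled replicate 3 (adjusted p = 0.067), scrambled replicate 4 (0.0558) or siGLUT2 replicate 4 (0.0589). PABPC1, the main poly(A)-binding protein, was not called (log2 fold change -0.12 ± 0.07, adjusted p = 0.223). Among 16 elongation and termination factors, 2 rose and 2 fell, a share of 25.0% beside the 28.3% of all genes. EEF1A1, which delivers tRNA to the ribosome, was at 668, 816 and 747 CPM in siGLUT2 cells, against 513, 495, 443 and 428 CPM in scrambled cells (log2 fold change 0.66 ± 0.09, adjusted p = 5.65e-06). Its paralog EEF1A2 fell, at 581, 810.2 and 871 CPM in siGLUT2 cells, against 1111, 1105, 1082 and 1007 CPM in scrambled cells (log2 fold change -0.51 ± 0.10, adjusted p = 0.000568). Reads of EEF1A1 can be shared with EEF1A2 and with pseudogenes, so both values are uncertain. EEF1B2 (log2 fold change 0.23 ± 0.08, adjusted p = 0.0374) and EEF1D (log2 fold change -0.27 ± 0.08, adjusted p = 0.0173), exchange factors of eEF1A, were called. EEF1B2 lost its call when siGLUT2 replicate 2 or 3 or any scrambled replicate was left out (adjusted p = 0.0527 to 0.106). EEF1D lost its call when scrambled replicate 1 (adjusted p = 0.0575), scrambled replicate 2 (0.0626) or siGLUT2 replicate 3 (0.106) was left out.

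**Figure D5:**
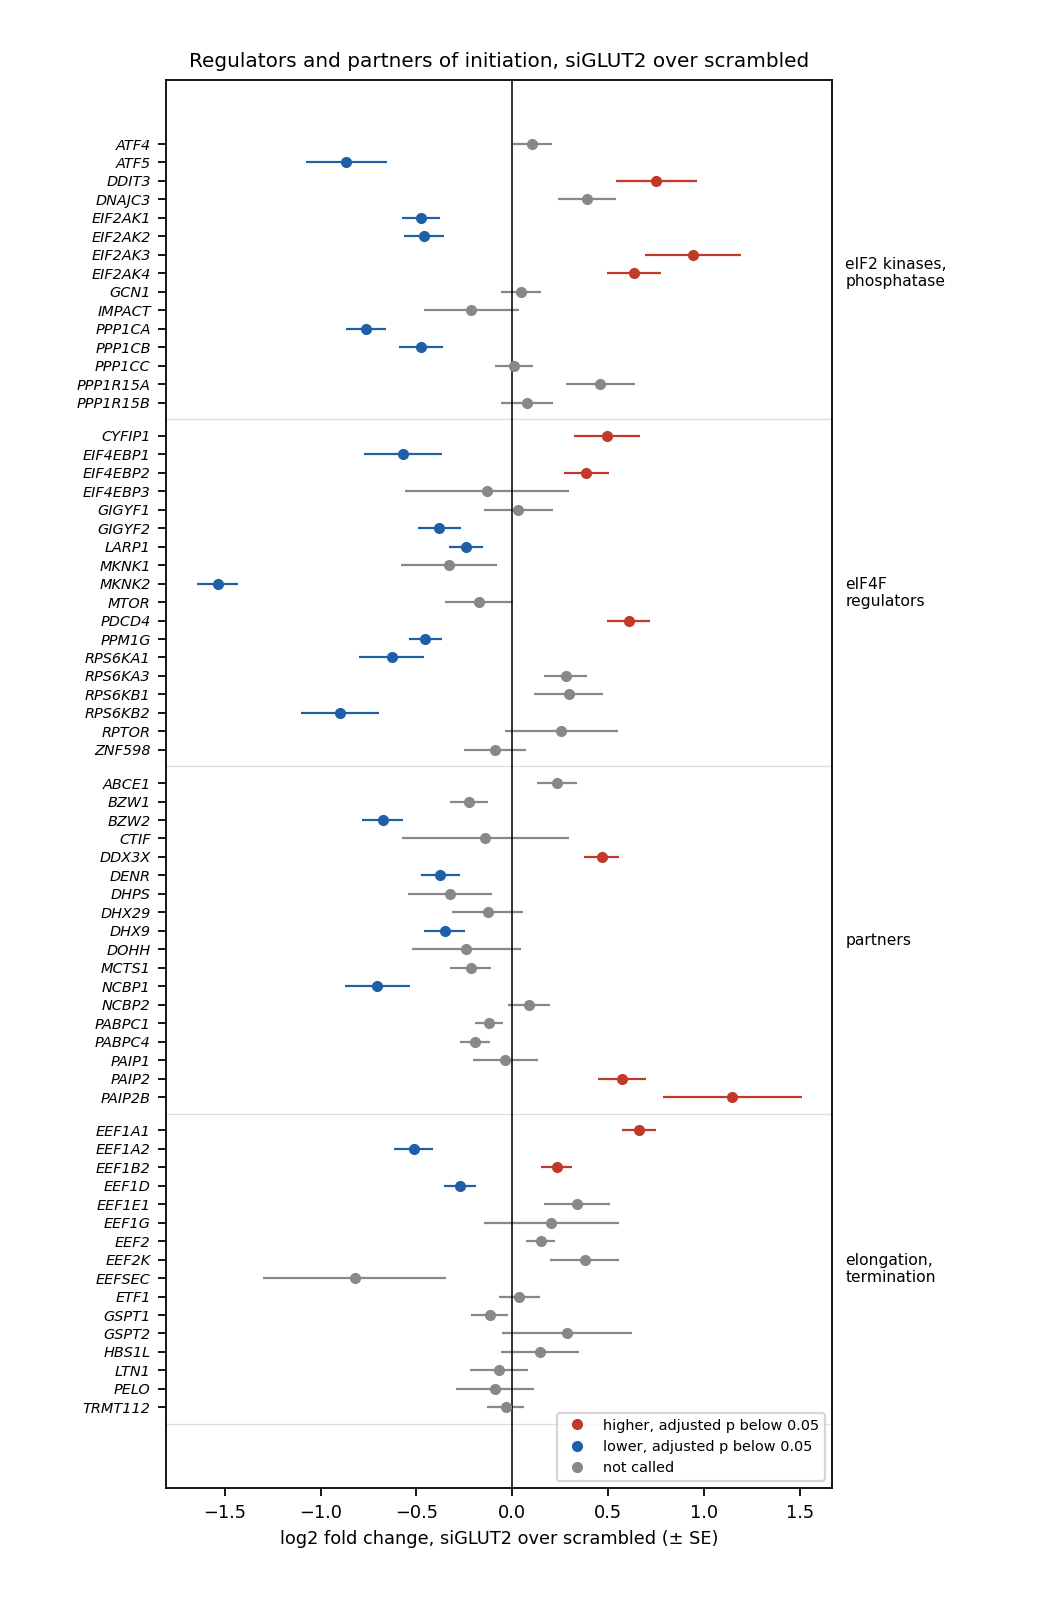
Log2 fold change (siGLUT2 over scrambled, ± SE) on the horizontal axis for the 67 regulators and partners of initiation, in 4 lists down the page. Red points are the 11 genes called higher, blue points the 18 called lower and grey points those not called. MKNK2 lies lowest at -1.54 ± 0.11 and PAIP2B, a relative of PAIP2, highest at 1.15 ± 0.36.

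An earlier scan of these same fold changes had picked the 7-base words GACCTTA and ACCTTAA in 3' UTRs, so their presence in the members is a description. Of 44 tested members with an annotated 3' UTR, 7 held either word (15.9%), compared with 15.4% of the 11621 genes tested that have such a UTR. These members were EIF3E, EIF3F, EIF3H, EIF4E2, EIF5, EIF5A2 and EIF1AD. Of the 9 members called lower 0 were among them, and of the 9 called higher 1 was, EIF4E2. In the whole table, 380 of the 1789 genes with a word were called lower and 195 higher. Of the other genes among the 11621, which held neither word, 1337 were called lower and 1485 higher. The sites of EIF4E2, EIF5 and EIF1AD are shown as the called member with a word and 2 of the members in which the words overlap at 1 place. The letters are the transcript strand from 5' to 3' on GRCh38 (GENCODE release 29), with the word or the overlapping pair in capitals.
EIF4E2, chr2:232582218-232582246, plus strand: aagactgcagtACCTTAAattaaggcctc
EIF5, chr14:103342547-103342575, plus strand: acagataatgaGACCTTAAtaacaaatag
EIF1AD, chr11:65997098-65997126, minus strand: ctcgaactcctGACCTTAAatgagcctcc
Of the transcripts with these sites EIF4E2 alone was called. Log2 fold changes were 0.33 ± 0.09 for EIF4E2, -0.09 ± 0.09 for EIF5 (adjusted p = 0.536) and -0.73 ± 0.30 for EIF1AD (adjusted p = 0.0697). The counts do not show which 3' end of each transcript the cells used.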

How the data were processed

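Per the labels' protocols, total RNA of HK-2 cells went through a commercial digital 3' mRNA-seq service (125 ng input, single-end, 100 cycles). The authors deposited whole-number read counts, 1 row per Ensembl gene; STAR, HTSeq, edgeR and hg38 are named without role in the submitters' processing notes. For the annotation release, the strand setting and molecular identifiers nothing is stated, so a read may belong to an overlapping or antisense gene or to a close copy: 31 of the 50 members overlap a gene on the opposite strand, and 0 of 68 named pseudogenes of 19 members have a row in the table. All 7 value columns were matched to samples by title, and 0 rows named no gene.

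Groups came from the titles. Over all 7 libraries, edgeR 4.0.16 (R 4.3.3) was run with filterByExpr (minimum count 10, minimum total 15), TMM, robust dispersion, glmQLFit and glmQLFTest, with Benjamini-Hochberg adjustment over 12404 genes and a threshold of 0.05. SE is the log2 fold change divided by the square root of F. Log2 CPM used a prior count of 2. Where replicates are cultures of 1 line, a p-value reflects only how those cultures vary. Members, lists and tests were chosen with earlier results of these data known. The rule names all called members, per-library values for up to 4 per complex, and up to 4 called genes per list. It also names both genes of each paralog pair. EIF2AK3, PPP1CB, DDIT3, ATF5, EIF4EBP1, EIF4EBP2, PAIP2B and genes given as not called were added after their values were seen. So were DENR, DHX9, RPS6KA1, GIGYF2, LARP1 and CYFIP1. Of the listed names HEMK2 was not matched. Alternatives were DESeq2 1.42.0, limma-voom (limma 3.58.1), other scalings and filters, a replicate block, each library left out, a threshold of 0.01 and, added after seeing the data, limma-voom with a weight per group and leaving out members with the 3' UTR words. Symbols and positions came from the table and GENCODE release 29; the longest annotated 3' UTR of each gene was searched on the transcript strand. Scripts were tested on simulated data.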

Additional observations from a re-analysis of the deposited data

Results flagged for a closer look

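In 2 of 45 tested members, 1 of the 4 scrambled libraries stood apart from the other 3, where chance gives about 1 in 20 groups. EIF1AX was at 256 CPM in scrambled replicate 1 and at 281 to 283 CPM in the other scrambled libraries. EIF3J was at 258 CPM in scrambled replicate 2 and at 238 to 240 CPM in the other scrambled libraries. In both genes the lowest siGLUT2 library (301 CPM for EIF1AX, 273 CPM for EIF3J) was still above the highest scrambled library.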

How the results depend on the processing

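Of the 18 called members, 10 kept their call in each of 16 alternative fits (EIF2S1, EIF2S3, EIF3B, EIF3D, EIF3G, EIF3J, EIF4A1, EIF4G2, EIF5A and EIF5B) and 0 changed direction in any. DESeq2 and limma-voom called all 18, and limma-voom with a weight per group called 17. With single libraries left out, 6 to 10 members were higher and 7 to 9 lower, 8 to 14 listed regulators higher and 14 to 19 lower, and 1384 to 1815 genes of the whole table higher and 1404 to 1963 lower. At an adjusted p of 0.01, 5 members were higher and 5 lower, 7 listed regulators were higher and 13 lower, and 1097 genes were higher and 1167 lower over the table. Same-numbered libraries did not deviate together (correlations of 0.0086, 0.0189 and -0.0044 for numbers 2, 3 and 4), and not every library correlated best with its own number, so the numbers were not taken as pairs. With a replicate block 12 of the 18 called members stayed called and 7 listed regulators were higher and 15 lower. The EIF4G1/EIF4G2 ratio difference ranged from -0.90 to -0.66 without single libraries, EIF4E/EIF4E2 from -0.18 to 0.33, EIF4A1/EIF4A2 from 0.01 to 0.21, EIF4G1/EIF4G3 from -0.55 to -0.15, EIF5A/EIF5A2 from -0.77 to 0.06, EIF1/EIF1B from -0.27 to 0.01 and EIF2S1/EIF2A from -0.07 to 0.09. EIF4E3 and EIF5A2 had low counts, EIF3C and EIF3CL were under the filter, and there were 3 siGLUT2 libraries.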
